A study of Homo sapiens with 6 samples.

Results

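The epithelial sodium channel was read through the probe sets of its 4 human subunit genes, SCNN1A, SCNN1B, SCNN1D and SCNN1G, in MM1S cells. MM1S is an established line of human myeloma cells, that is, of malignant plasma cells. A probe set is a group of short oligonucleotides on the array that together give 1 intensity for a transcript. The members were all probe sets that the platform annotation pairs with 1 of these symbols alone, which gave 7 of 54613 probe sets: 3 for SCNN1A, 2 for SCNN1G and 1 each for SCNN1B and SCNN1D. The family was chosen by the change of SCNN1G in these same arrays, the largest rise of all genes, so that change is given as a description, without a test. The other subunits entered by their names and not by their values. The arrays fell into 2 groups, MM1S cells under hypoxia (3 arrays) and MM1S cells under normoxia (3 arrays). The treatment text, which gives a hypoxic exposure of 24 h, is the same on all 6 arrays, and neither an oxygen level nor the handling of the normoxia cells is given in the sources used here. No label says that the arrays of a group came from separate cultures, so the spread behind the p-values may be no more than technical.

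The channel is built from alpha, beta and gamma subunits, encoded by SCNN1A, SCNN1B and SCNN1G, and lets sodium enter across the apical membrane of epithelia such as the kidney collecting duct, the distal colon and the airways. The delta subunit, encoded by SCNN1D, can take the place of alpha. Aldosterone raises channel activity through the mineralocorticoid receptor and the kinase SGK1, the ubiquitin ligase NEDD4L removes the channel from the membrane, and proteases such as furin cut its alpha and gamma subunits and open it further.

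Levels are linear intensities, a brightness with no absolute unit, as the mean ± SD of 3 arrays per group. Changes are differences in log2(intensity + 16), hypoxia minus normoxia, and come out too small for dim probe sets. They were tested in limma, a linear model fitted to all probe sets at once, with Benjamini-Hochberg adjustment over all 54613 and a threshold of 0.05. The array medians lay between 57.59 and 60.13 under hypoxia and between 54.95 and 56.77 under normoxia. No detection calls were used, so a level near or under these medians cannot be told from background. Of the hypoxia check genes, 9 of 11 measured members rose and 0 fell, where 15.6% rose and 19.1% fell over all genes read by their brightest probe set. Among them was PFKFB4, a regulator of glycolysis, with a change of 4.05. All 10 plasma cell markers were measured, and their summed intensity was 62479.4 to 64829.9 under hypoxia and 62325 to 64651.4 under normoxia.

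The gamma subunit gene SCNN1G was read very differently by its 2 probe sets. Probe set 241436_at stood at 4574, 4370.2 and 4329 on the hypoxia arrays, and at 137, 126 and 142 on the normoxia arrays. Every hypoxia array lay far above every normoxia array, and the mean intensity was 4425 ± 131 under hypoxia and 135 ± 8.41 under normoxia, a linear ratio of 32.8. Its change of 4.88 ranked 1 of 54613 probe sets, which is the value that chose the family. The genes just below it in the order of changes were MIR210HG at 4.28 and DIRC3 at 4.18.

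Probe set 207295_at of the same gene stood at 14.9, 4.14 and 15.1 on the hypoxia arrays, and at 5.29, 1.74 and 12.0 on the normoxia arrays. These values overlapped between the groups and all lay in the lowest part of their arrays, at percentiles 7.51 to 22.6 under hypoxia and 3.70 to 19.2 under normoxia. The probe sets therefore gave a very bright and a near-background reading of 1 gene on the same hypoxia arrays. The platform annotation pairs 207295_at with a messenger RNA record, while it gives no transcript accession for 241436_at, as for 14.0% of all probe sets with 1 symbol. Which transcript 241436_at reads was therefore not settled here, and whether the full SCNN1G coding transcript was present was not tested. A much looser kind of split was not rare: of 374 genes with several probe sets whose brightest rose by at least 1, 112 (29.9%) had no other probe set that rose. SCNN1G is in this set, and a split as wide as its own was not counted. Among the 84 of them whose other probe sets all had a mean intensity under the median of all values, as 207295_at did, the number was 63 (75%). Of all probe sets under that median only 8.96% passed in either direction. A high share was thus set in advance, and it says little about 241436_at.

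SCNN1B, which encodes the beta subunit, was the other bright member, and it rose. Its probe set 205464_at stood at 3540.5, 3178 and 2897 on the hypoxia arrays, and at 1426, 1304 and 1172 on the normoxia arrays. The groups did not overlap, and the lowest hypoxia array was well above the highest normoxia array. The mean was 3205 ± 322 under hypoxia and 1301 ± 127 under normoxia, a linear ratio of 2.46 and a change of 1.29 (95% confidence interval 1.02 to 1.57, limma adjusted p = 0.000419). It lay above 95.6% of the probe sets of every hypoxia array and above 88.3% of those of every normoxia array, so the beta subunit transcript was already bright under normoxia. The arrays average over all cells of a sample, so more cells with the transcript and more of it per cell cannot be told apart. Its change ranked 282 among 19775 genes read by their brightest probe set. Over all probe sets, 15.5% rose and 15.2% fell, and hypoxia lay above normoxia without overlap in 21.6%. Calls depended on brightness: 52.0% of probe sets with a mean at or above the median of all values passed in either direction, against 8.96% under it. A call of a bright probe set such as 205464_at is therefore less rare than the shares over all probe sets. For lists that are mostly bright or mostly dim, the shares over all genes are a rough measure only.

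**Figure D1:**
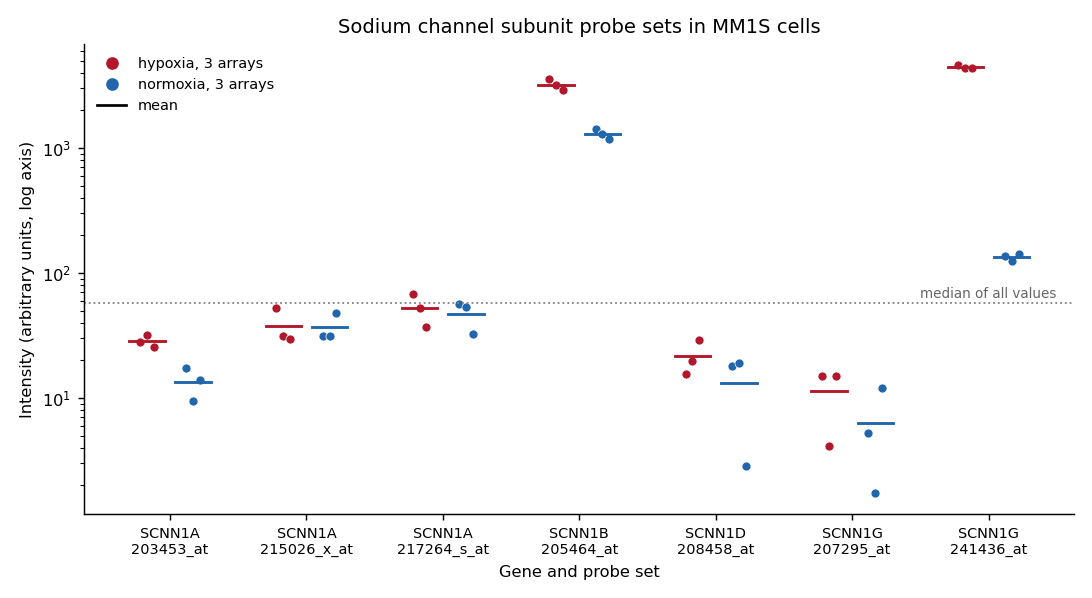
Intensity (log axis) of the 7 subunit probe sets on each array, with hypoxia in red left of normoxia in blue; points are arrays and bars are means of 3 arrays. SCNN1B and probe set 241436_at of SCNN1G stand above the median of all values (dotted) on all 6 arrays, while the other 5 probe sets stand near or under it.

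The stretch before the start of SCNN1B is shown because it is the promoter window of the bright subunit gene whose rise was tested, and because hypoxia-inducible factors bind a short core, ACGTG or GCGTG. It is taken from RefSeq (GRCh38.p14, chr16:23302052-23302301, plus strand), and covers the 250 bases before the gene start, with each GCGTG in capitals.
SCNN1B promoter window: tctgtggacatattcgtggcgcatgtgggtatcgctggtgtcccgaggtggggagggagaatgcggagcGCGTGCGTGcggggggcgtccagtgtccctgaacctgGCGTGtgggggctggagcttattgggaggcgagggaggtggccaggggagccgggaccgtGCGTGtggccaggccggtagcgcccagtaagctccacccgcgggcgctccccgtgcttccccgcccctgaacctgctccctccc
The window holds GCGTG 4 times, all on the plus strand and starting 181, 177, 144 and 84 bases before the gene start, where the first pair shares a base. ACGTG was found 0 times on either strand. Counting both strands, at least 1 GCGTG is present in 32.2% of 35116 RefSeq promoter windows of this length, at least 1 ACGTG in 18.5%, and 4 or more matches to either in 3.22%. The window is rich in G and C, at 70% against a median of 58%. A match to these letters is no evidence of binding. The table used holds a window for 1 of the 4 subunit genes.

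The alpha subunit gene SCNN1A was dim in all 3 of its probe sets, and they did not move together. Probe set 203453_at stood at 28.1, 31.9 and 25.8 on the hypoxia arrays, and at 17.4, 9.45 and 13.8 on the normoxia arrays. These groups did not overlap, and it rose by 0.60 (95% confidence interval 0.31 to 0.89, limma adjusted p = 0.0113), yet all 6 values lie under every array median. Probe set 215026_x_at averaged 37.7 ± 12.6 under hypoxia and 36.9 ± 9.57 under normoxia, and 217264_s_at 52.7 ± 15.6 under hypoxia and 47.2 ± 13.0 under normoxia. The groups overlapped in both, and neither passed, with changes of 0.012 (interval -0.48 to 0.50) and 0.12 (interval -0.43 to 0.67). SCNN1D, the delta subunit gene, stood at 15.5, 19.8 and 29.4 on the hypoxia arrays, and at 18.1, 18.95 and 2.84 on the normoxia arrays. It overlapped between the groups and did not pass, with a change of 0.40 (interval -0.27 to 1.07, limma adjusted p = 0.363). So of the 5 probe sets of SCNN1A, SCNN1B and SCNN1D, 2 rose and 3 did not pass, and of the 7 members only SCNN1B and probe set 241436_at had a mean intensity above the median of all values. Since the members were chosen with a change in this contrast known, their count is not read against the 15.5% over all probe sets.

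**Figure D2:**
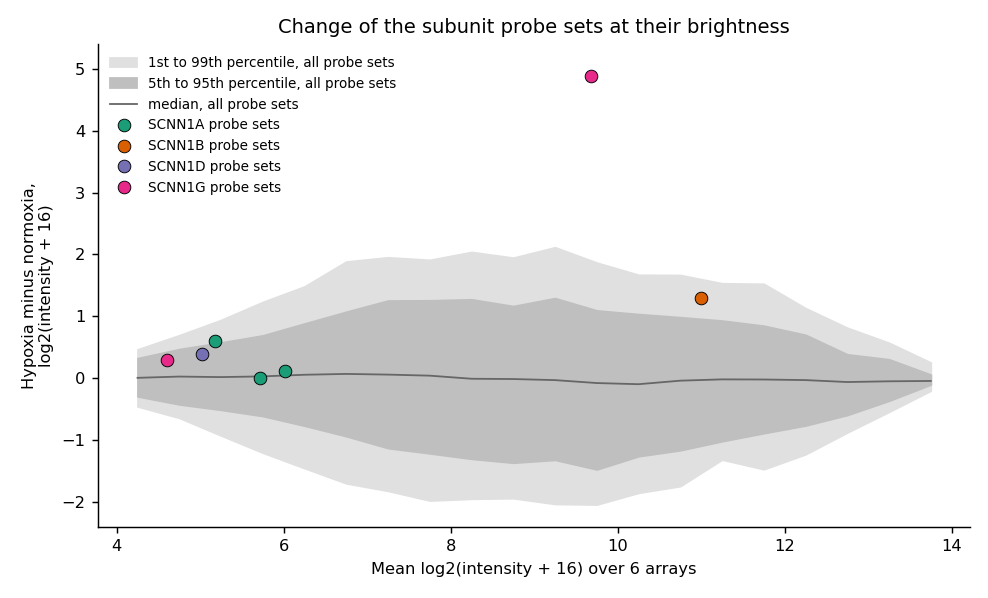
Change (hypoxia minus normoxia, log2(intensity + 16)) against mean log2(intensity + 16) over 6 arrays for the subunit probe sets, on bands of the percentiles of all probe sets at each brightness. Probe set 241436_at of SCNN1G, at 4.88, lies far outside the bands; SCNN1B, at 1.29, lies between the 95th and 99th percentiles; the dim members lie between 0.012 and 0.60.

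Over the 6 arrays, the genes whose log2 profile was most like that of probe set 241436_at were PAM, an enzyme that amidates peptide hormones, then YPEL2, ZNF665, RGS1, a regulator of G protein signalling, and ALDOC, an aldolase. Their Pearson correlations with it lay between 0.9998 and 0.99997, and their changes between 0.61 and 2.76. With 2 groups this measure mostly follows the split between hypoxia and normoxia: 835 of 11962 genes of at least middle brightness were above 0.99. SCNN1B was at 0.984.

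SCNN1G and SCNN1B are neighbours, with no other measured protein-coding gene between them in the order of the RefSeq gene table. Most of the nearest measured protein-coding genes around them did not rise past the threshold. Of 10 such genes, 1 rose, 5 fell and 4 did not pass, with a median change of -0.26, against 15.6% that rose and 19.1% that fell among all genes read by their brightest probe set. USP31, which lies beside SCNN1G, fell to 165 under hypoxia, against 306 under normoxia (change -0.84, limma adjusted p = 0.00261). COG7, a Golgi tether subunit beside SCNN1B, rose by 0.47 (limma adjusted p = 0.0236), a call lost when any of 5 arrays was left out in turn (adjusted p up to 0.0810). EARS2, the mitochondrial glutamyl-tRNA synthetase, fell by 0.98, UBFD1 by 0.49, NDUFAB1, the mitochondrial acyl carrier protein, by 0.35 and the RNA polymerase III subunit gene POLR3E by 0.28. The calls of UBFD1 and POLR3E were lost when any of 3 and of 5 arrays was left out (adjusted p up to 0.0627 and 0.0745). Of the genes that did not pass, CDR2 and GGA2 were higher under hypoxia (0.24 and 0.16) and EEF2K and HS3ST2 lower (-0.25 and -0.058). With probe sets averaged per gene, CDR2 rose and EEF2K fell as well (limma adjusted p = 0.0440 and 0.00841). CDR2 has 1 probe set, so for it only the fit differed.

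**Figure D3:**
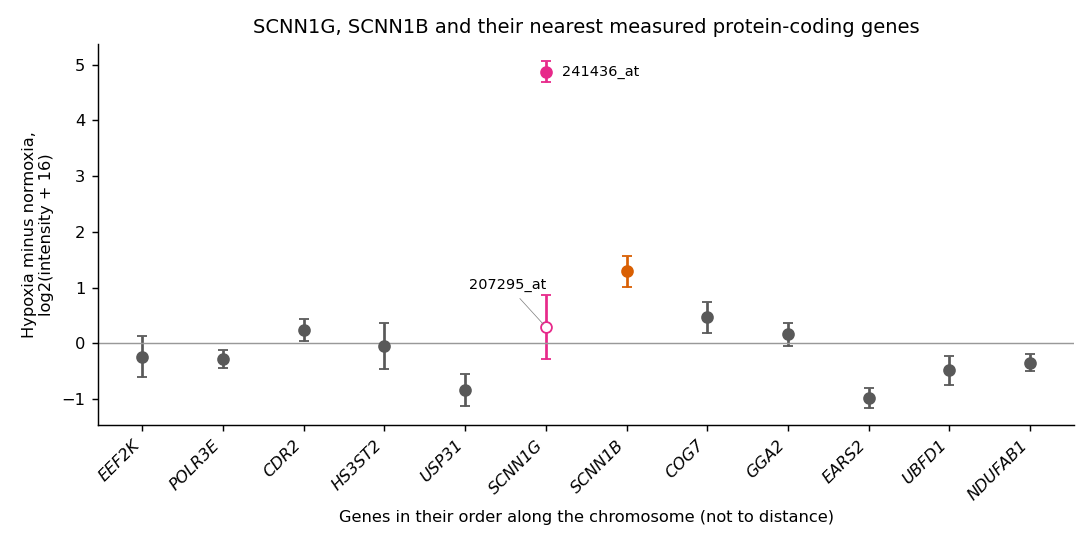
Change with its 95% confidence interval for SCNN1G (241436_at filled, 207295_at open), SCNN1B and the nearest measured protein-coding genes, in their order along the chromosome. The other genes lie between -0.98 and 0.47, below SCNN1B at 1.29.

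Around the dim subunit genes the neighbours, each read by its brightest probe set, gave counts near those over all genes, of which 15.6% rose and 19.1% fell. Of 10 genes around SCNN1A, 2 rose and 2 fell: VAMP1, a vesicle fusion protein, rose by 0.72 and the lymphotoxin receptor gene LTBR by 0.60, while the tetraspanin gene CD9 fell by 0.53 and the mitochondrial ribosomal gene MRPL51 by 0.25. Of 10 genes around SCNN1D, 2 rose and 1 fell: C1QTNF12 rose by 0.78 and TNFRSF4, a receptor of activated T cells, by 0.30, while the pseudouridine synthase-like gene PUSL1 fell by 0.72. Leaving out an array in turn ended the calls of LTBR (5 of 6 arrays, adjusted p up to 0.0787), MRPL51 (5 of 6, up to 0.103), CD9 (3 of 6, up to 0.0877) and TNFRSF4 (6 of 6, up to 0.117). The counts also depended on the probe set read. With probe sets averaged per gene, VAMP1, CD9 and LTBR did not pass (limma adjusted p = 0.0530, 0.0601 and 0.335). Around SCNN1D, B3GALT6, INTS11 and UBE2J2 then fell beside PUSL1, by 0.59, 0.62 and 0.38 (limma adjusted p at most 0.0167).

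The next list holds genes that cut the channel or that hold such proteases in check. Of 15 listed and measured genes, 4 rose, 1 fell and 10 did not pass, where 15.6% rose and 19.1% fell over all genes, and the median change was 0.16, against -0.00016 over all genes. With probe sets averaged per gene, 6 rose and 0 fell, PCSK7, a convertase like furin, among those that rose (0.47, limma adjusted p = 0.00203). That is a separate fit for which no share over all genes was counted, so the 15.6% and 19.1% are not its measure. CTSB, the lysosomal protease cathepsin B, rose to 3546 ± 82.3 under hypoxia, against 1838 ± 84.4 under normoxia (change 0.94, limma adjusted p = 0.000248), and its 4 other probe sets rose as well. SERPINE2, a secreted serine protease inhibitor, rose by 0.70 to 5708 ± 39.2 under hypoxia, against 3507 ± 109 under normoxia, while its other probe set did not pass. SPINT2, a membrane-bound inhibitor of serine proteases, rose by 0.54 to 2079 ± 46.2 under hypoxia, against 1422 ± 22.9 under normoxia. TMPRSS4, a membrane serine protease, rose by 0.54 at a level close to background, 13.7 ± 2.73 under hypoxia and 4.32 ± 0.18 under normoxia. ST14, which encodes matriptase, fell by 0.28 to 1434 ± 90.5 under hypoxia, against 1742 ± 11.9 under normoxia (limma adjusted p = 0.0335), a call lost when any of 5 arrays was left out (adjusted p up to 0.106).

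The proteases best known for cutting the channel did not pass. FURIN, the convertase of the secretory pathway, averaged 117 ± 13.1 under hypoxia and 79.4 ± 18.4 under normoxia (change 0.49, limma adjusted p = 0.0586), and it passed under some alternatives, among them without normoxia replicate 1 and with dim probe sets left out. Its limma adjusted p ranged from 0.0143 to 0.163 over all alternatives run. PRSS8, which encodes prostasin, averaged 38.0 ± 13.1 under hypoxia and 60.3 ± 14.9 under normoxia (change -0.51, limma adjusted p = 0.165), around the array medians.

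Of 16 measured ubiquitin ligases and trafficking proteins of the channel, 4 rose, 3 fell and 9 did not pass, with a median change of -0.054. These counts are near the 15.6% that rose and 19.1% that fell over all genes, so the members are described singly. The 4 that rose include NEDD4L by its brightest probe set, although its probe sets disagree, as given below. NEDD4, the founding ligase of its family, stood at 185, 229.7 and 204 on the hypoxia arrays, and at 569, 523 and 530.3 on the normoxia arrays. The groups did not overlap, and it fell by 1.33 (limma adjusted p = 0.000222). UCHL3, a deubiquitinase linked to channel recycling, fell by 0.93 to 2134 ± 61.3 under hypoxia, against 4069 ± 157 under normoxia, and COMMD1, which binds the delta subunit, fell by 0.54. ITCH and WWP1, ligases of the NEDD4 family, rose by 0.86 and 0.40, and the endosomal deubiquitinase gene USP8 rose by 0.50. Of the other probe sets of ITCH, 2 rose and 3 did not pass. Averaged over its probe sets, WWP1 did not pass (0.18, limma adjusted p = 0.103).

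NEDD4L, the ligase that binds the tails of the channel subunits, could not be given a direction. Its brightest probe set, 212445_s_at, rose to 455 ± 24.2 under hypoxia, against 285 ± 8.06 under normoxia (change 0.64, limma adjusted p = 0.00114). Of its 5 other probe sets, 241396_at also rose, by 0.91, while 212448_at fell by 0.81 and 226974_at by 1.29, and 2 did not pass. The mean of the 6 was at 0.064 (limma adjusted p = 0.576).

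Of 15 measured genes of the hormone receptors, kinases and other regulators upstream of the channel, 4 rose, 2 fell and 9 did not pass, with a median change of 0.12. These counts too are near the 15.6% and 19.1% over all genes. SGK1, the kinase that restrains NEDD4L, stood at 1108, 1243 and 1187 on the hypoxia arrays, and at 2468, 2405 and 2487 on the normoxia arrays. The groups did not overlap, and it fell by 1.05 (limma adjusted p = 0.000202). RICTOR, the subunit of the kinase complex that phosphorylates SGK1, rose by 1.01 to 2876 ± 42.3 under hypoxia, against 1417 ± 15.4 under normoxia, and its 3 other probe sets rose as well. NR3C1, the glucocorticoid receptor gene, rose by 0.40 to 6644 ± 34.5 under hypoxia, against 5017 ± 111 under normoxia, while FKBP5, a receptor co-chaperone and itself a glucocorticoid target, fell by 1.52 to 755 ± 19.2 under hypoxia, against 2198 ± 90.6 under normoxia. TSC22D3 of the same list averaged 6050 ± 107 under hypoxia and 5584 ± 194 under normoxia and did not pass (change 0.12, limma adjusted p = 0.276). Receptor activity was not tested. DOT1L, a histone methyltransferase that represses the alpha subunit gene in mouse collecting duct cells, rose by 0.75, although its 2 other probe sets did not pass. The kinase gene WNK1 rose by 0.39, a call lost when any of 3 arrays was left out (adjusted p up to 0.0584). Of its other probe sets, 2 rose and 4 did not pass. NR3C2, the mineralocorticoid receptor gene, averaged 53.6 ± 5.45 under hypoxia and 62.3 ± 6.63 under normoxia and did not pass (limma adjusted p = 0.276). HSD11B2, which protects that receptor from cortisol, was at 6.20 ± 3.58 under hypoxia and 7.26 ± 2.13 under normoxia, where signal cannot be told from background.

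**Figure D4:**
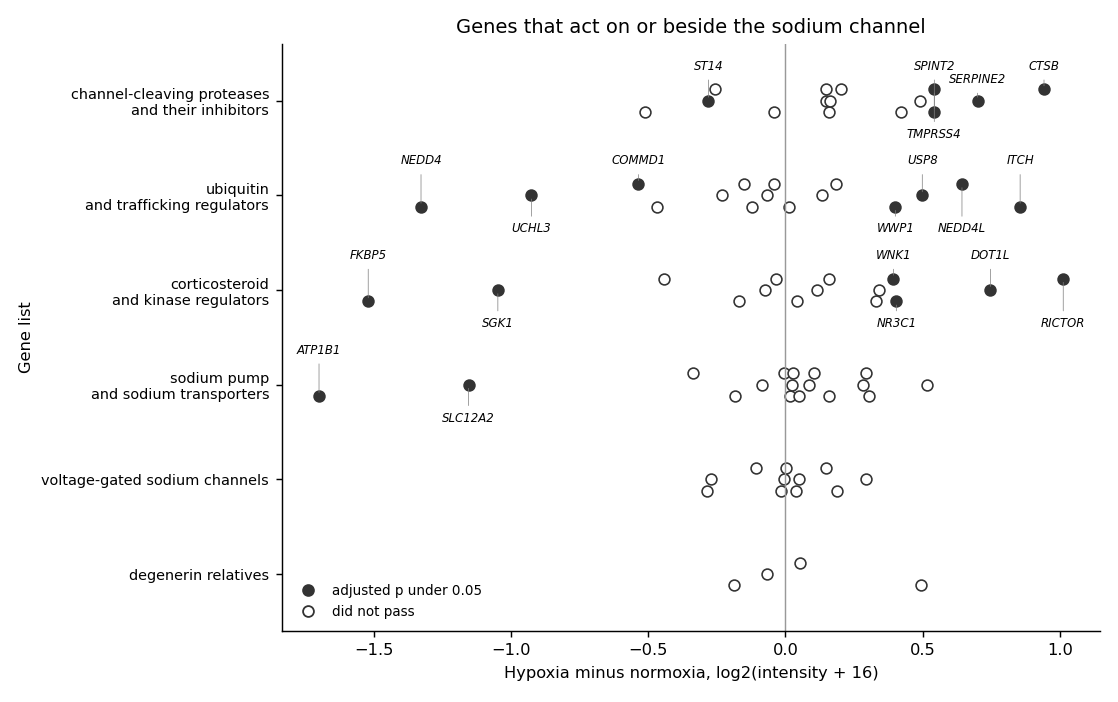
Change of each measured gene of 6 lists, read by its brightest probe set; filled points passed in limma (adjusted p under 0.05) and are named, open points did not pass. The lists of channel regulators hold filled points on both sides of 0, the pump and transporter list only on the left, and the last 2 lists none. NEDD4L is drawn by its brightest probe set only, and 2 of its other probe sets fell.

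Among the sodium pump and other sodium transporters, 17 genes were measured: in limma 0 rose, 2 fell and 15 did not pass (0 higher and 3 lower at an unadjusted p of 0.05). Their median change was 0.029, and over all genes 15.6% rose and 19.1% fell. ATP1B1, a beta subunit of the pump that carries sodium out of the cell, stood at 62.0, 77.8 and 48.1 on the hypoxia arrays, and at 242, 238 and 229.9 on the normoxia arrays. The groups did not overlap and it fell by 1.70 (limma adjusted p = 0.000375), as did its other probe set. ATP1B3, another beta subunit gene of the pump, was far brighter, at 6190 ± 68.1 under hypoxia and 7030 ± 216 under normoxia. It was lower under hypoxia without overlap but did not pass (change -0.18, limma adjusted p = 0.0893). SLC12A2, a sodium, potassium and chloride cotransporter, fell by 1.15 to 346 ± 22.9 under hypoxia, against 789 ± 46.1 under normoxia, while its other probe set did not pass. CFTR, the chloride channel that works beside the sodium channel in airways, averaged 13.3 ± 0.61 under hypoxia and 11.7 ± 2.64 under normoxia and did not pass. In 10 of the 17 genes both group means lay under the median of all values.

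The relatives of the subunits were dim, and read by their brightest probe set they did not change past the threshold. Of the acid-sensing ion channels, the sister branch of the family, ASIC1, ASIC2, ASIC4 and ASIC5 were measured. In limma 0 passed (1 higher and 0 lower at an unadjusted p of 0.05), where 15.6% rose and 19.1% fell over all genes. In 3 of these 4 both group means lay under the median of all values, where few probe sets pass. ASIC1 averaged 66.5 ± 1.79 under hypoxia and 70.5 ± 4.02 under normoxia. ASIC5 averaged 15.6 ± 3.35 under hypoxia and 6.55 ± 3.92 under normoxia (change 0.49, limma adjusted p = 0.0537), and it passed without normoxia replicate 2 (adjusted p = 0.0268), with the replicate block and with probe sets averaged per gene. Its limma adjusted p ranged from 0.0218 to 0.149 over all alternatives run. Of 11 voltage-gated sodium channel genes, 0 passed in limma (1 higher and 0 lower at an unadjusted p of 0.05), against the same shares over all genes. Their mean intensities were at most 105 under hypoxia and 130.2 under normoxia, and in 8 of the 11 both group means lay under the median of all values. Of the dimmer probe sets of SCN8A, 1 rose and 4 did not pass. The brightest of the 11 genes, SCN9A, had a second, dimmer probe set that fell by 1.15, to 44.6 ± 4.05 under hypoxia, against 119 ± 18.6 under normoxia (limma adjusted p = 0.000796).

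Most markers of epithelial cells, in which the channel normally works, were near background. Of 13 measured epithelial markers, 1 rose, 1 fell and 11 did not pass, where 15.6% rose and 19.1% fell over all genes, and their summed intensity was 533 to 592 under hypoxia and 609.9 to 707 under normoxia. EPCAM, an epithelial adhesion protein, rose by 1.03 to 67.3 ± 9.97 under hypoxia, against 24.8 ± 4.04 under normoxia. ESRP1, an epithelial splicing regulator, stood well above the array medians under normoxia, at 244 ± 23.7, and fell by 2.69 to 24.5 ± 4.72 under hypoxia. Its other probe set fell as well, by 0.94 (limma adjusted p = 0.0204). With probe sets averaged per gene, 3 rose and 1 fell, since the mucin gene MUC1 (0.95, limma adjusted p = 0.00334) and the epithelial transcription factor gene ELF3 (0.40, limma adjusted p = 0.0180) passed as well. The share over all genes was not counted for that separate fit. Probe set 213693_s_at of MUC1 rose by 1.87, to 127 ± 16.4 under hypoxia, against 25.2 ± 16.5 under normoxia (limma adjusted p = 0.00321), while its brightest probe set did not pass. CDH1, KRT19, CLDN7, GRHL2 and RAB25 had means under 20 in both groups. Of 6 measured collecting duct markers, 0 passed in limma (0 higher and 2 lower at an unadjusted p of 0.05). The water channel gene AQP2 averaged 61.5 ± 32.5 under hypoxia and 75.04 ± 25.7 under normoxia, and AQP3, the only member far above the array medians, 6859 ± 309 under hypoxia and 7844 ± 124 under normoxia. All 3 probe sets of AQP3 were lower under hypoxia without overlap, 39249_at fell (limma adjusted p = 0.0485), and so did their mean, by 0.30 (limma adjusted p = 0.0336). Of the plasma cell markers, 0 rose, 4 fell and 6 did not pass in limma (2 higher and 4 lower at an unadjusted p of 0.05), where 15.6% rose and 19.1% fell over all genes. CD38 fell by 0.71, SLAMF7 by 0.34, SDC1 by 0.30 and MZB1 by 0.26; leaving out an array in turn ended the calls of SDC1 (4 of 6 arrays, adjusted p up to 0.0603) and MZB1 (6 of 6, up to 0.110). Dimmer probe sets of POU2AF1, IRF4 and PRDM1, transcription regulators of plasma cells, rose by 0.85, 0.65 and 0.45, and POU2AF1 rose when averaged over its probe sets (0.52, limma adjusted p = 0.00361). Whether any of these has a part in the levels of SCNN1B or SCNN1G was not tested.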

How the data were processed

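Total RNA of MM1S cells was labelled with biotin and hybridised to 6 single-colour arrays, per the labels' protocols. Each array has a linear intensity for every probe set in the deposited table; the authors' background correction, summary and scaling are not given in the sources used here, and their scaling was kept. Arrays were grouped by their condition label. Of the probe sets, 41091 carried 1 symbol in the platform annotation, 1801 several and 11721 none; symbols of 41037 were updated through RefSeq. Pairs of arrays shared 1.07% to 1.23% of their values, fewer than the 2.53% that are exactly 1, so each array counted as a sample. Their number limits the precision.

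Intensities were turned into log2(intensity + 16) and compared between the groups with limma 3.58.1 (lmFit, eBayes; R 4.3.3), two-sided, without a filter or a covariate. The procedure was tested on simulated data. In lists, a gene is read by its brightest single-symbol probe set (mean log2 over the 6 arrays). The members and lists were chosen with earlier results of these data known. By rule, the text names all subunit probe sets, the acid-sensing channels, up to 6 members of each list past the threshold, genes of known role (NEDD4L, NEDD4, SGK1, NR3C1, NR3C2, FURIN, PRSS8, CFTR and ATP1B1; another in that rule is not reported here), every one of the 5 nearest measured protein-coding genes on each side of a subunit gene that passed, and the 5 genes most like SCNN1G; SCN9A, HSD11B2, AQP2, AQP3, PCSK7, MUC1, ELF3, MLLT3, HGS, POU2AF1, IRF4, PRDM1 and the dim epithelial markers were picked after their values were seen. ATP1B3, CDR2, GGA2, EEF2K, HS3ST2 and TSC22D3 were also picked after their values were seen. Alternatives changed the pseudocount, scaling, filter on dim probe sets, variance trend, replicate block, probe set summary and arrays. A planned comparison of the subunit proteins was not made, as no protein sequences were used here. Same-numbered arrays (replicates 0, 1 and 2) deviated together with correlations of 0.21, 0.0082 and 0.19 over all probe sets. The highest correlations of the same hypoxia arrays with another number were -0.012, 0.093 and 0.0069. Replicates 0 and 2 thus shared some deviation with their own number, and replicate 1 did not. The arrays were treated as unpaired in the main fit, and the replicate number was a block in an alternative only.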

Additional observations from a re-analysis of the deposited data

How the results depend on the processing

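SCNN1B kept its direction and its call under every alternative run, with changes of 1.23 to 1.35 under other scalings and 1.22 to 1.36 when an array was left out (limma adjusted p at most 0.00368), and so did probe set 203453_at of SCNN1A (0.50 to 0.69, adjusted p at most 0.0436), which with 4 other members has no value once dim probe sets are left out. Probe set 241436_at of SCNN1G was at 5.03 with a pseudocount of 1, 4.50 with 64 and 4.81 with median centring, and at 4.83 to 4.91 when an array was left out; 207295_at was at 0.85 with a pseudocount of 1. Among members that did not pass, 215026_x_at turned to -0.054 with median centring and -0.021 with quantile normalization and ranged from -0.17 to 0.16 when an array was left out, and 217264_s_at from -0.064 to 0.29.

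With the replicate number as a block, the acid-sensing channels that rose numbered 1 in place of 0, and SCNN1B kept its call (limma adjusted p = 0.00289). Whether same-numbered arrays belong together was not settled, and hypoxia replicate 1 did not correlate best with its own number, so this is a hint only. With probe sets averaged per gene, 1 acid-sensing channel rose, 1 voltage-gated channel fell, and 6 channel-cleaving proteases or inhibitors rose in place of 4 (FURIN and PCSK7 added) and 0 fell in place of 1. FURIN and ASIC5 have 1 probe set each, so averaging left their changes as they were. They passed only because the averaged genes were fitted and adjusted separately (limma adjusted p = 0.0467 and 0.0424). No shares over all genes were counted for that fit. Among the corticosteroid and kinase regulators 6 rose in place of 4 (MLLT3 and ELF3 added), and among the ubiquitin and trafficking regulators 3 in place of 4 (HGS added, NEDD4L and WWP1 lost). The count of proteases that fell was also 0 with a pseudocount of 1 and with quantile normalization, where 1 voltage-gated channel fell. When an array was left out, 0 to 1 acid-sensing channels rose, 0 to 1 voltage-gated channels and 0 to 1 proteases fell, and 2 to 3 locus neighbours rose and 4 to 9 fell, in place of 5 and 8 of 30. Fewer arrays also give fewer calls over all probe sets (6752 to 8276 rose, against 8481). Of 39 named genes past the threshold, 11 lost the call without at least 1 array and 9 under another alternative; 0 turned direction while past the threshold. Low signal over background limits all members but SCNN1B and 241436_at. The causes were not tested.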
